A study of Mus musculus with 9 samples.

Results

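The comparison described here is between NIH 3T3 cells given a short hairpin RNA (shRNA) against Ube2m and the same cells given a control shRNA. It uses 6 of the 9 arrays of the series, 3 for each hairpin, and the remaining 3 arrays carry an shRNA against Ube2f, the gene of the other NEDD8-conjugating enzyme, and serve for direct contrast. NIH 3T3 is an established line of mouse embryonic fibroblasts. Every culture received a retroviral vector carrying 1 of the 3 hairpins, RNA was taken 5 days later, and 6 ug of total RNA was labelled for a 1-colour Affymetrix mouse array. Per the growth label, which all 9 samples share, these NIH 3T3 cells expressed Ube2f, and this holds for the control cells too. The labels call the arrays of a group biological replicates and do not say that they came from separate cultures, so p-values measure only the spread between these samples, which may be technical. The labels give no second hairpin per gene, no hairpin sequence and no clone. After choosing 1 probe set per gene, 10613 of 18193 named genes were bright enough to be tested. The series title names the NEDD8 cascade of E2 and RING enzymes as its subject. No probe set named for Ube2m alone was found in the probe table used here, so the reduction of Ube2m itself was not checked here.

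NEDD8 is a small protein related to ubiquitin that is attached to cullins, the scaffolds of cullin-RING ubiquitin ligases. The E2 enzyme Ube2m works with the RING protein Rbx1 on cullins 1 to 4, and Ube2f works with Rnf7 on cullin 5. Attachment of NEDD8 activates the ligase, the COP9 signalosome removes it, and exchangeable adaptors (F-box, BTB, SOCS-box and DDB1-bound receptors) choose the substrates. Known substrates include the redox regulator NRF2, the NF-kappaB inhibitors, beta-catenin and many cell cycle proteins. The arrays measure RNA and not these proteins, and in such bulk samples fewer cells of a type and less RNA per cell cannot be told apart.

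Signals are the deposited linear array intensities, and fold changes are differences of group means of log2(signal + 16), which understate changes of dim genes. All arrays had been scaled to 1 trimmed mean. The median signal over all probe sets ran from 53.3 to 58.5 on the replicate 1 and 2 arrays and reached 73.5 on the 3 replicate 3 arrays, each higher than any of the other 6. The beta-actin 3' to 5' ratio, a measure of RNA integrity, was 1.82 on control replicate 1 and at most 1.35 on the other 8 arrays. The mean signal of the spiked control RNAs was 5090 and 5438 on control replicates 1 and 2 against 7330 and 7415 on Ube2m replicates 1 and 2, while replicate 3 ran the other way, with 7386 for control and 5117 for Ube2m. The part of these array properties in the gene results was tested only as far as the alternatives in the closing section go.

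With limma and a Benjamini-Hochberg adjusted p under 0.05, 1031 genes or 9.71% differed between Ube2m and control hairpins, 381 of them higher (3.59%) and 650 lower (6.12%). Centring the arrays on their medians turned this split to 534 rises and 432 falls, and the excess of falls therefore depends on the scaling. At 2-fold or more, 78 genes rose and 64 fell. Between Ube2m and Ube2f hairpins 1672 genes or 15.8% differed, 676 higher (6.37%) and 996 lower (9.38%) with Ube2m. These percentages are the background against which each family count below is read. For 29.7% of genes the 3 Ube2m arrays and the 3 control arrays did not overlap. The median log2 fold change of all tested genes was -0.04, and 44.4% of genes had a positive value. The number of calls depended on single arrays: it was 388 without Ube2m replicate 2, 443 without Ube2m replicate 1, 472 without control replicate 1 and 719 without control replicate 2. For this reason, genes given below with their array values are those that passed the threshold in each of the 9 fits that leave out 1 array, and also when a gene's probe sets were averaged, except where a sentence says otherwise. That choice was made after the values were seen. List counts of 2 or fewer are the least firm: of 84 such counts over all lists and both directions, 62 changed in at least 1 of the 9 fits that leave out 1 array.

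**Figure D1:**
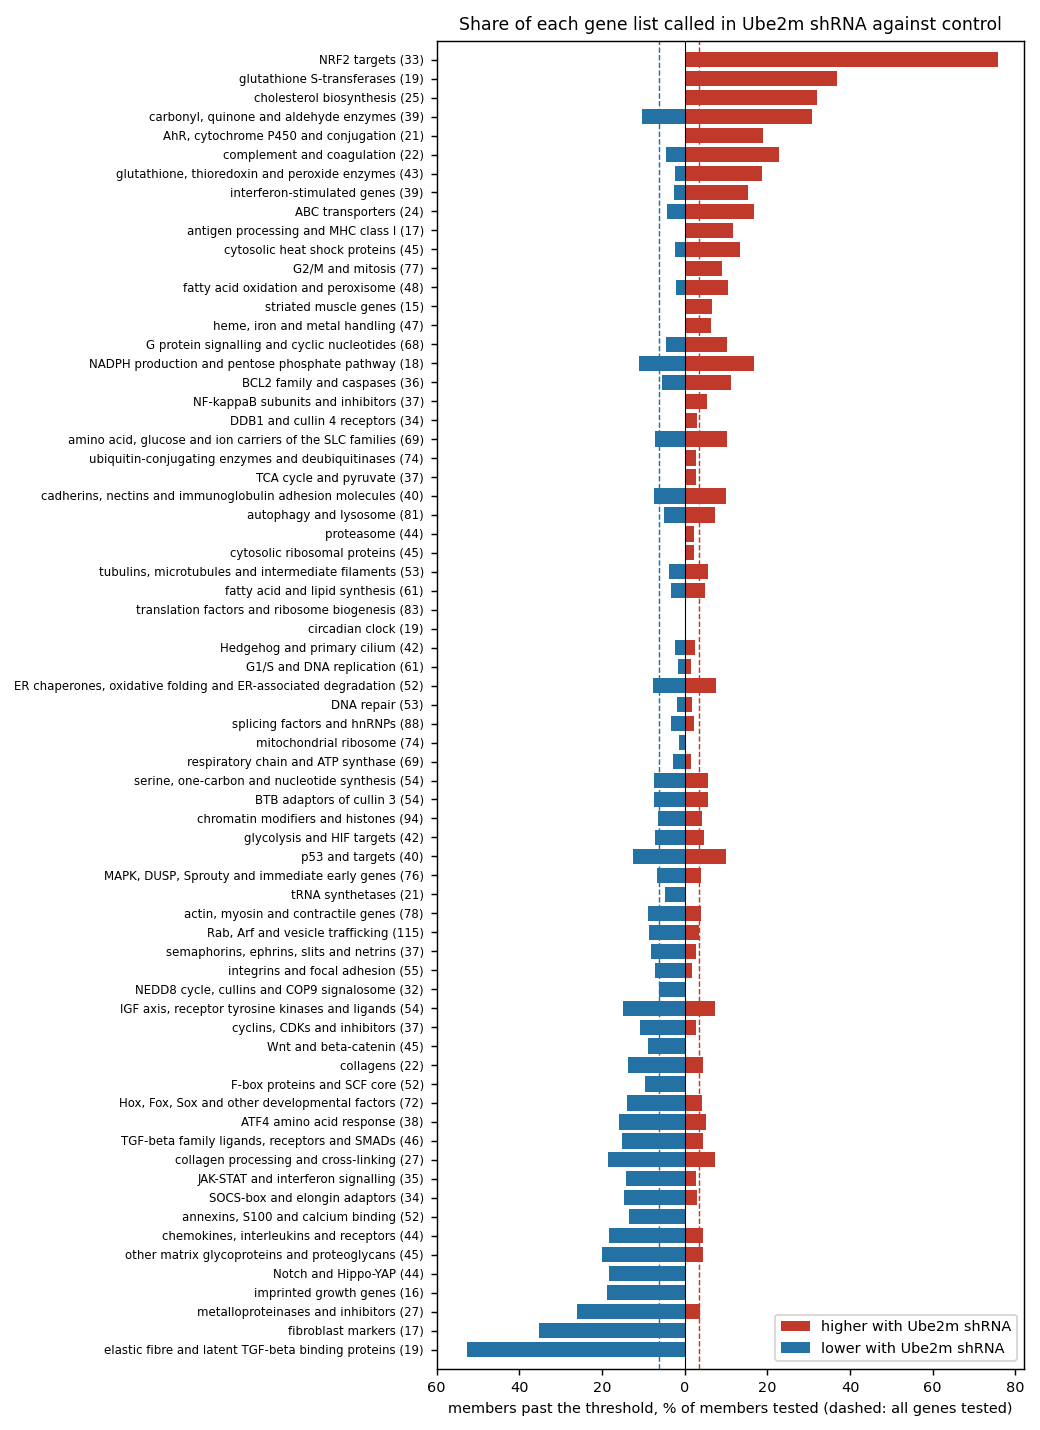
Share of the tested members of each gene list with 15 or more tested genes (number in brackets; 1 list is not shown) that passed adjusted p under 0.05 in limma, higher (to the right) or lower (to the left) with Ube2m shRNA than with control shRNA, with dashed lines at the shares over all 10613 genes, 3.59% and 6.12%. NRF2 targets lie far to the right and other detoxification lists less far, and the matrix lists, led by elastic fibre proteins with 10 of 19 members, lie to the left.

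Genes of the NEDD8 cycle, the cullins and the COP9 signalosome gave few calls. Of 32 tested, 2 fell (1 higher and 3 lower at unadjusted p under 0.05, 1 lower by an unmoderated test that takes each gene's variance from that gene alone), and 16 of the 32 had a positive fold change. Cops7a, a COP9 subunit, read 2772, 2592 and 2904 on the 3 control arrays and 1730.1, 1673 and 1812 on the 3 Ube2m arrays. The groups did not overlap (log2 change -0.66, SE 0.10, adjusted p = 0.00188), and the Ube2f arrays were as low, at 1575, 1832 and 1724, a difference between the hairpins of 0.03 (SE 0.10, adjusted p = 0.908). Dcun1d2, a co-E3 that helps cullin neddylation, was lower, at -0.45 (adjusted p = 0.0192), a call that was lost without either of control replicates 1 and 2 or Ube2m replicates 1 and 2 and with probe sets averaged (-0.29, adjusted p = 0.224). Nedd8 itself was at -0.03 (adjusted p = 0.915), Cul1 at -0.32 (adjusted p = 0.108) and Cul3 at -0.02 (adjusted p = 0.927), none of which passed. Rnf7, the partner of Ube2f, is counted below with the SOCS-box and elongin genes. It was lower than control, at -0.48 (adjusted p = 0.0363), and did not pass against Ube2f (-0.23, adjusted p = 0.274).

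Lists of adaptors of the cullin ligases gave calls on both sides of the background of 9.71%, from 2.94% to 17.6% of a list. Among BTB proteins, the adaptors of cullin 3, 3 of 54 rose and 4 fell (for the falls, 2 without Ube2m replicate 2 or control replicate 1 and 2 with probe sets averaged). Klhl29, a kelch-BTB protein, read 143, 132 and 161 with control and 67.5, 49.3 and 56.4 with Ube2m shRNA. All Ube2m arrays were below the control arrays (log2 change -1.13, SE 0.20, adjusted p = 0.0052) and below the Ube2f arrays (-1.10, adjusted p = 0.00315). Bach1, a BTB repressor that competes with NRF2 for its sites, rose by 0.78 (adjusted p = 0.00268), but with its probe sets averaged the change did not pass, at 0.80 (adjusted p = 0.227). Of 52 F-box and SCF core genes 5 fell (3 higher and 12 lower at unadjusted p under 0.05, 0 by the unmoderated test), among them Btrc, the receptor for phosphorylated beta-catenin and NF-kappaB inhibitors, at -0.52 (adjusted p = 0.0343). That call of Btrc was lost in 5 of 9 fits that leave out 1 array (control replicate 1 or 2 or any Ube2m array). The F-box count was 0 without control replicate 1, 1 without Ube2m replicate 1 or Ube2m replicate 2, 2 without control replicate 2, 3 without Ube2m replicate 3, 3 with probe sets averaged and 3 with arrays centred. SOCS-box and elongin genes gave 1 rise and 5 falls of 34 (for the falls, 1 without Ube2m replicate 1 or Ube2m replicate 2, 2 without Ube2m replicate 3, control replicate 1 or control replicate 2, 3 without control replicate 3, 1 with probe sets averaged and 3 with arrays centred), and DDB1-bound receptors 1 rise of 34.

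Redox and detoxification genes rose in numbers above the 3.59% over all genes, and the NRF2 target list, known from earlier results of these data, had 25 of 33 members higher. Outside that list 0 of 14 NADPH genes and 1 of 44 heme, iron and metal genes rose, so the rise did not extend to every family. Nfe2l2, the gene of NRF2, and Keap1, its cullin 3 adaptor, did not pass, at -0.11 (adjusted p = 0.485) and -0.02 (adjusted p = 0.957). The families that follow overlap with that list, and each overlap is given. A gene outside the list may still be an NRF2 target, so counts outside it do not separate NRF2 targets from other genes. Of 43 glutathione, thioredoxin and peroxide enzymes 8 rose and 1 fell. On the NRF2 list were 6 of these rises, and of the 36 enzymes outside it 2 rose. Of 24 ABC transporters 4 rose and 1 fell. On the NRF2 list were 2 of these rises, and of the 22 transporters outside it 2 rose. Of 19 glutathione S-transferases, which couple glutathione to reactive compounds, 7 rose (12 higher and 1 lower at unadjusted p under 0.05, 3 higher by the unmoderated test), with a list median of 0.56. Of the 7 that rose 5 are also NRF2 list members, and of the 12 tested transferases outside that list 2 rose, Mgst1 and Gsto1. Of 24 transferases with a probe set 19 were bright enough to test. Gsta3 and Gsta2, among the 7, had control means of 17.3 and 19.1, under the signal limit of 53.78. Aldh3a1, another NRF2 list member that rose, had 48.5. All 3 were lower still with Ube2f shRNA, so they were tested only because of their Ube2m arrays, which raises both counts. Mgst1, a membrane-bound member, read 117, 169 and 139.7 with control and 653, 666 and 689 with Ube2m shRNA. All 3 Ube2m arrays lay far above the controls (log2 change 2.13, SE 0.19, adjusted p = 4.04e-05), while the Ube2f arrays, at 119, 156 and 96.6, lay near the controls. With both hairpins compared directly Mgst1 differed by 2.31 (SE 0.19, adjusted p = 7.81e-06). Averaging its probe sets lowered the Ube2m change to 1.23 (adjusted p = 0.00761).

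Carbonyl, quinone and aldehyde enzymes, which reduce or oxidise reactive carbonyl compounds, changed both ways, with 12 rises and 4 falls among 39. Of the 12 that rose 5 are NRF2 list members, and of the 32 tested enzymes outside that list 7 rose. The count of falls was 2 without Ube2m replicate 2. Akr1c14, an aldo-keto reductase of steroids, read 560.4, 698 and 546 with control and 2309.9, 2231 and 2684 with Ube2m shRNA. Ptgr1, which reduces prostaglandins and lipid aldehydes, read 4608, 4429 and 3895 against 13572, 13197 and 13407. Adh7, an alcohol dehydrogenase active on retinol, read 529, 607 and 496 against 1818, 1901 and 2110. In each of these 3 genes all Ube2m arrays lay above all control arrays, with changes of 1.98 for Akr1c14 (adjusted p = 1.04e-05), 1.64 for Ptgr1 (adjusted p = 1.73e-06) and 1.81 for Adh7 (adjusted p = 4.47e-06). Adh7 was also above control on the Ube2f arrays, at 801, 753 and 939.6, and still differed between hairpins by 1.21 (SE 0.13, adjusted p = 5.14e-05). The falls went to other members. Dhrs3, which reduces retinaldehyde, read 988, 592 and 701 with control and 448, 373 and 367 with Ube2m shRNA (log2 change -0.89, SE 0.17, adjusted p = 0.0084), and did not pass against Ube2f (-0.25, adjusted p = 0.385). Cbr4, a mitochondrial carbonyl reductase, fell from 905 ± 130.1 to 547 ± 42 (SD, n = 3 each), at -0.70 (adjusted p = 0.00625) on the log2 scale.

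The aryl hydrocarbon receptor and a target enzyme rose together. Ahr, the receptor, read 32.6, 55.2 and 67.2 with control and 164, 182 and 274 with Ube2m shRNA, close to the dim end of the tested genes. Its groups did not overlap (log2 change 1.72, SE 0.31, adjusted p = 0.00536), and a larger constant of 64 gave 1.22. On the log2 scale the control and Ube2f means of Ahr lay under the brightness limit. It was therefore tested only because of its Ube2m arrays, and only a rise could be called. Cyp1b1, a cytochrome P450 under its control, read 827, 652 and 478 with control, 1922, 2049.8 and 2712 with Ube2m and 304, 185 and 309 with Ube2f shRNA. The 3 groups did not overlap and control lay between the hairpins, with 1.77 against control (adjusted p = 0.000545) and 3.01 (SE 0.22, adjusted p = 4.04e-06) against Ube2f. Averaging the probe sets gave 1.00 (adjusted p = 0.0456) for Ahr and 1.06 (adjusted p = 0.00948) for Cyp1b1. Cyb5a, cytochrome b5, an electron donor to P450 enzymes, read 4094, 4353 and 4221 against 9513, 8798 and 8829.8 (log2 change 1.10, SE 0.095, adjusted p = 3.4e-05). The whole list of AhR, P450 and conjugation genes had 4 rises in 21 (7 higher and 4 lower at unadjusted p under 0.05, 1 higher by the unmoderated test), none of the 4 an NRF2 list member.

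Among 47 genes of heme, iron and metal handling 3 or 6.38% rose and 0 fell (10 higher and 6 lower at unadjusted p under 0.05, 2 higher by the unmoderated test), against 9.71% called in either direction over all genes. The count of rises was 5 without Ube2m replicate 3, 6 without Ube2f replicate 3 and 5 with arrays centred, so that its place against the background depends on single arrays. Of these 3 rises 2 are NRF2 list members, and the other is Slc40a1. Slc40a1, ferroportin, the iron exporter of the cell membrane, read 168, 183 and 188 with control and 659, 643 and 661 with Ube2m shRNA. Levels were highest with Ube2m and lowest with Ube2f shRNA, at 84.5, 57.2 and 96.8, with no overlap between any groups. Slc40a1 changed by 1.78 against control (SE 0.18, adjusted p = 0.000118) and by 2.83 (SE 0.18, adjusted p = 1.56e-06) against Ube2f. Cat, catalase, which breaks down hydrogen peroxide, read 2622, 3032 and 2962 with control and 6315, 5947 and 5578 with Ube2m shRNA (log2 change 1.05, SE 0.12, adjusted p = 0.000278). Xdh, xanthine dehydrogenase, a source of urate and peroxide, read 104, 76.9 and 80 against 238, 231 and 258 (log2 change 1.33, SE 0.19, adjusted p = 0.00111). Both genes were non-overlapping between groups and higher than with Ube2f shRNA, Cat by 0.80 (adjusted p = 0.000764) and Xdh by 0.93 (adjusted p = 0.00562).

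NRF2 and its partners are known to bind the antioxidant response element, whose core is written TGACNNNGC, or GCNNNGTCA on the other strand. RefSeq promoter windows of 300 bases (250 before to 50 after the start, GRCm38.p6) were searched on both strands for these letters. The core was present in 12.4% of all 32851 windows, in 14.3% of windows of tested genes and in 12.9% of windows of genes that fell. By gene, it was present for 17.0% of tested genes, 20.2% of 297 genes that rose and 15.6% of 518 genes that fell, counting genes with a window. Of 60 genes that rose at least 2-fold and had a window, 17 or 28.3% held a match, which is read against the 17.0% of tested genes. Stretches of 59 bases around the match are shown for 8 of these 17 genes. They were chosen to span NRF2 list members (Gclm, Gsta3), the transferase Mgst1 and genes of other families described here. The match is in capitals and each stretch is printed along the gene's own strand.
Gclm: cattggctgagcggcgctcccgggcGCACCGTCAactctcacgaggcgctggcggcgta
Gsta3: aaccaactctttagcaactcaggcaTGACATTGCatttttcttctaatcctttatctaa
Mgst1: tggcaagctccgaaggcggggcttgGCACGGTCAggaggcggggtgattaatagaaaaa
Fetub: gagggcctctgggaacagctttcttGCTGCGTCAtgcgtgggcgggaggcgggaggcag
Procr: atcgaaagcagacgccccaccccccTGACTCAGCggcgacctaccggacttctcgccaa
Irak2: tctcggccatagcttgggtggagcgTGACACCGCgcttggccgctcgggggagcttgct
Tet1: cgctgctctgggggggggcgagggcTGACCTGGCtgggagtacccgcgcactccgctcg
Igtp: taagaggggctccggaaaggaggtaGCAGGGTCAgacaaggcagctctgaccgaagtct
They lie at chr3:122245398-122245456 (Gclm), chr1:21240439-21240497 (Gsta3), chr6:138140446-138140504 (Mgst1), chr16:22920087-22920145 (Fetub), chr2:155751038-155751096 (Procr), chr6:113638399-113638457 (Irak2), chr10:62887335-62887393 (Tet1) and chr11:58199337-58199395 (Igtp), all upstream of the annotated start. A match describes letters and is no evidence of binding. The other 43 of the 60 genes had no match in their windows, which says only that these letters are not in these 300 bases.

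The genes behind these stretches rose with different relations to the Ube2f hairpin. Fetub, fetuin B, a secreted protease inhibitor, read 98.4, 93.2 and 111 with control, 414, 431 and 335 with Ube2m and 82, 49.2 and 102 with Ube2f shRNA. Only the Ube2m arrays were above the control arrays, with 1.80 against control (adjusted p = 0.000579) and 2.16 (SE 0.23, adjusted p = 6.49e-05) against Ube2f. Tet1, which oxidises 5-methylcytosine in DNA, read 176, 172 and 139.9 with control, 336, 423 and 420.4 with Ube2m and 278, 250 and 308 with Ube2f shRNA. The Ube2f arrays lay between the other groups, and the difference between hairpins did not pass (0.47, adjusted p = 0.0732), while Tet1 rose over control by 1.19 (adjusted p = 0.000937) and by 0.82 (adjusted p = 0.0243) with probe sets averaged. Igtp, an interferon-induced GTPase, was dim on the control arrays at 12.9, 50.2 and 4.6, and was higher on every array of both hairpins, at 248, 325 and 133 with Ube2m and 222, 205 and 203 with Ube2f. The difference of Igtp between hairpins was 0.08 (SE 0.40, adjusted p = 0.928), and its change from control fell from 2.80 to 1.77 with a constant of 64.

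**Figure D2:**
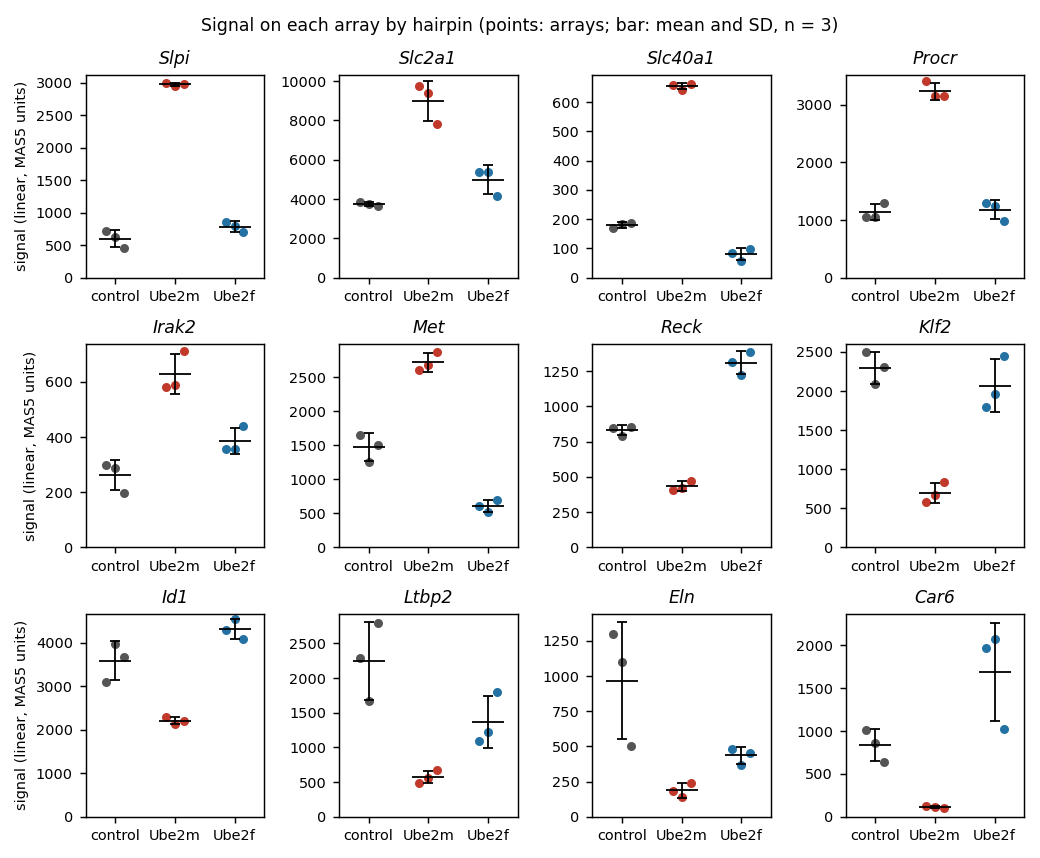
Signal of 12 genes on each of the 9 arrays, on linear axes from 0, with each point 1 array, grouped by control, Ube2m and Ube2f shRNA, and bars at the group mean and its SD (n = 3). Slpi, Slc2a1, Slc40a1, Procr, Irak2 and Met are higher on every Ube2m array than on every control array, and Reck, Klf2, Id1, Ltbp2, Eln and Car6 are lower.

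Single genes of carbon metabolism rose while most glycolytic and mitochondrial genes did not pass. Slc2a1, the glucose transporter GLUT1, read 3861, 3736 and 3663 with control and 9760.3, 9385 and 7827 with Ube2m shRNA. Each Ube2m array was above each control by more than 2-fold (log2 change 1.25, SE 0.12, adjusted p = 9.8e-05), and the Ube2f arrays were between, at 5401, 5401 and 4146 (0.85, adjusted p = 0.000657 for the direct difference). Gbe1, the branching enzyme of glycogen synthesis, read 197, 120.2 and 145 against 494, 589.9 and 779 (log2 change 1.91, SE 0.22, adjusted p = 0.000278). Pcx, pyruvate carboxylase, which feeds oxaloacetate to the citric acid cycle, read 324, 230.3 and 203 against 571, 535 and 536 (log2 change 1.09, SE 0.17, adjusted p = 0.00206). In all 3 of these genes every Ube2m array was above every control array. Gbe1 differed from Ube2f by 1.98 (adjusted p = 8.26e-05), and Pcx did not pass that test (0.50, adjusted p = 0.0687). Of 42 glycolysis and HIF target genes 2 rose and 3 fell, and of 69 respiratory chain genes 1 rose and 2 fell, both close to or below the background. For the glycolysis list the count of rises was 1 without Ube2m replicate 1, Ube2m replicate 2 or control replicate 2, and that of falls 1 without Ube2m replicate 1 or Ube2m replicate 2. Pdk1, a kinase that holds pyruvate dehydrogenase inactive, was lower at -0.89 (adjusted p = 0.00214), a call lost with probe sets averaged (-0.60, adjusted p = 0.0935).

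Of 18 genes of NADPH production and the pentose phosphate pathway 3 rose and 2 fell. The 3 that rose, Taldo1, Pgd and Me1, are all NRF2 list members, and of the 14 tested genes outside that list none rose. With arrays centred 5 of the 18 rose. In the pentose phosphate pathway, Taldo1, transaldolase, read 7346, 9060 and 8749 with control and 16086, 16198 and 15142 with Ube2m shRNA, and Pgd, 6-phosphogluconate dehydrogenase, read 11669, 11109.7 and 10426 against 19232, 19179 and 16605. Pgls, the lactonase between the 2 dehydrogenases, went the other way, from 3074, 3472 and 2637 to 1989, 1918 and 1647. None of the 3 genes overlapped between groups, with changes of 0.92 (adjusted p = 0.00026) for Taldo1, 0.73 (adjusted p = 0.00229) for Pgd and -0.72 (adjusted p = 0.00671) for Pgls. In the mitochondrial folate pathway, Mthfd1l, which makes formate, went down from 4426 ± 443 to 2593 ± 158 (SD, n = 3 each; log2 change -0.77, SE 0.11, adjusted p = 0.00105). Aldh1l2, which makes NADPH from formyl-folate, went down from 3363 ± 511 to 1992 ± 141 (log2 change -0.74, SE 0.12, adjusted p = 0.00233). Sat1, which acetylates polyamines for export, read 4891, 5789.8 and 4917 with control and 3082, 2947 and 2711 with Ube2m shRNA (log2 change -0.83, SE 0.11, adjusted p = 0.000937). The 3 genes were lower than with Ube2f shRNA too, by -0.67 (adjusted p = 0.00125) for Mthfd1l, -0.78 (adjusted p = 0.000875) for Aldh1l2 and -0.85 (adjusted p = 0.000375) for Sat1.

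Car6, a secreted carbonic anhydrase, had the largest fall of the 650 genes that fell. It read 1014, 865 and 635 with control, 123, 112 and 101 with Ube2m and 1965, 2070.4 and 1026 with Ube2f shRNA. The Ube2m arrays were at 13.3% of the control mean and the Ube2f arrays were above every control array, so that the hairpins differed by -3.67 (SE 0.24, adjusted p = 2.07e-06). Only 3 carbonic anhydrases were bright enough to test and 2 of them fell.

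Cholesterol synthesis genes that passed were all higher with Ube2m shRNA, against control and against Ube2f. Of 25 tested genes 8 rose against control (12 higher and 0 lower at unadjusted p under 0.05, 0 by the unmoderated test), 22 had a positive fold change and the median was 0.34. Against Ube2f shRNA 13 were higher, with a median of 0.60. The count against control was 1 without Ube2m replicate 2 or control replicate 1, 3 without Ube2m replicate 1, Ube2m replicate 3 or control replicate 2 and 3 with probe sets averaged. Nsdhl, which removes methyl groups of the sterol ring, read 1275, 1509.8 and 2082 with control, 2410, 2521 and 2729.8 with Ube2m and 1144, 1056 and 1469 with Ube2f shRNA. Its Ube2m arrays were the highest of all, at 0.68 (adjusted p = 0.0266) against control, a call lost in 5 of the 9 fits that leave out 1 array (without control replicate 1 or 2 or any of the 3 Ube2m arrays), and at 1.07 (SE 0.17, adjusted p = 0.00118) against Ube2f. Sqle, squalene epoxidase, a rate-limiting step, was at 0.08 (adjusted p = 0.758) against control, with 4426, 3954 and 5004 against 4353, 4617 and 5184. The Ube2f arrays of Sqle were lower than both, at 2557, 2317 and 3084, giving a difference between hairpins of 0.83 (SE 0.13, adjusted p = 0.000983). Srebf2, the gene of the transcription factor SREBP-2, did not pass in either comparison, with 0.05 (adjusted p = 0.925) against control and 0.49 (adjusted p = 0.149) against Ube2f.

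**Figure D3:**
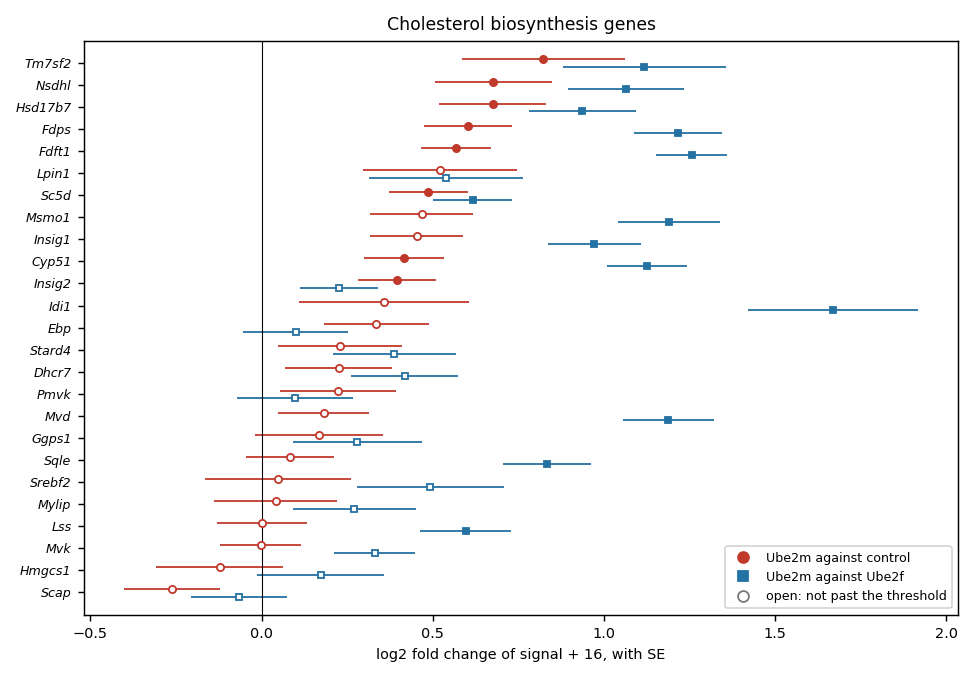
Log2 fold change of the 25 tested cholesterol synthesis genes with Ube2m shRNA against control and, beside it, against Ube2f shRNA, with bars of 1 SE and filled points for adjusted p under 0.05 in limma. Against control 8 points pass and against Ube2f 13 pass, all of them to the right of 0.

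Several families of matrix genes fell in numbers above the background. Elastic fibre and latent TGF-beta binding proteins, which form the elastin scaffold and store TGF-beta in it, had 10 of 19 members lower (0 higher and 12 lower at unadjusted p under 0.05, 0 by the unmoderated test) and a median log2 fold change of -0.47, against -0.04 over all genes. This count stayed between 7 and 10 whichever array was left out. Eln, elastin, read 1296, 1102 and 499 with control and 182, 138 and 243 with Ube2m shRNA. Its control arrays were spread, with replicate 3 lowest, and still lay all above the Ube2m arrays (-2.20, adjusted p = 0.000862). Ltbp2, a latent TGF-beta binding protein, read 2295, 1665 and 2790.2 against 492, 557 and 669.5, and the Ube2f arrays were above the Ube2m arrays, at 1086, 1216 and 1795. Ltbp2 changed by -1.92 against control (adjusted p = 0.000195) and by -1.21 (SE 0.21, adjusted p = 0.00207) against Ube2f. Emilin2, an elastin-microfibril interface protein, went down from 4065 ± 484 to 2389 ± 389 (SD, n = 3 each; log2 change -0.77, SE 0.14, adjusted p = 0.0056). Fbln5, a fibulin that assembles elastic fibres, also passed (-0.90, adjusted p = 0.000485), but not with its probe sets averaged (-0.05, adjusted p = 0.929).

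Of the enzymes that cross-link or modify collagen, 5 of 27 fell and 2 rose. Lox, lysyl oxidase, which starts the cross-linking of collagen and elastin, was among the brightest of them, at 21776, 19461 and 18899 with control and 13319, 14213 and 12838 with Ube2m shRNA. All 3 Ube2m arrays were lower (log2 change -0.57, SE 0.095, adjusted p = 0.00292), and the Ube2f arrays were just as low, at 14247, 14198 and 13684, so that the hairpins did not differ detectably (-0.06, adjusted p = 0.726). Loxl3, a related oxidase, read 2729, 2409 and 4249.9 with control and 1556, 1436 and 1796 with Ube2m shRNA, and differed from both control (-0.93, adjusted p = 0.00854) and Ube2f (-0.76, adjusted p = 0.0139). P3h4, a partner of the collagen hydroxylases, read 3772, 3223 and 3035 against 2027, 2051 and 2085 (log2 change -0.69, SE 0.11, adjusted p = 0.00212). Both Loxl3 and P3h4 were lower on every Ube2m array. This list's count of falls was 3 without Ube2m replicate 1, Ube2m replicate 2 or control replicate 1.

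Of 22 tested collagens 3 fell and 1 rose, and the count of falls was 1 without Ube2m replicate 1, Ube2m replicate 2 or control replicate 1. Col5a1, the chain that sets fibril diameter, read 6800, 6328 and 6394 with control and 4746, 4623 and 4653 with Ube2m shRNA (log2 change -0.48, SE 0.091, adjusted p = 0.0073). The major fibrillar chains did not pass, with Col1a1 at -0.16 (adjusted p = 0.41), Col1a2 at 0.07 (adjusted p = 0.822) and Col3a1 at -0.01 (adjusted p = 0.965). Small leucine-rich proteoglycans, which coat collagen fibrils, had 3 of 6 members lower (0 higher and 4 lower at unadjusted p under 0.05, 2 lower by the unmoderated test), with a median of -0.57.

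Metalloproteinases and their inhibitors had 7 falls and 1 rise in 27, or 29.6% called against 9.71% over all genes, and a median of -0.34. The rise was that of Htra1, at 0.56 (adjusted p = 0.0129), and 7 of the 27 had a positive fold change. The count of rises was 0 without Ube2m replicate 1. The count of falls was 4 with probe sets averaged. Adamts1, a secreted protease of proteoglycans, read 2949, 2346 and 1863 with control and 1144, 1085 and 1091 with Ube2m shRNA (log2 change -1.07, SE 0.14, adjusted p = 0.000705). Mmp2, gelatinase A, read 10088, 7811 and 8955 against 5263, 5386 and 5977 (log2 change -0.69, SE 0.11, adjusted p = 0.00264). Reck, a membrane-anchored inhibitor of these proteases, fell with them, from 849.5, 793 and 857 to 405, 421 and 471 (log2 change -0.92, SE 0.11, adjusted p = 0.000441), and the Ube2f arrays were above control, at 1318, 1224 and 1389. Adamts1, Mmp2 and Reck were thus all lower on every Ube2m array than on any control array. Adam9, a membrane sheddase, fell (-0.56, adjusted p = 0.00671). Adamtsl5, a relative without protease activity that binds microfibrils, went down from 609.9 ± 74.3 to 275 ± 39.4 (SD, n = 3 each; log2 change -1.11, SE 0.15, adjusted p = 0.000928).

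**Figure D4:**
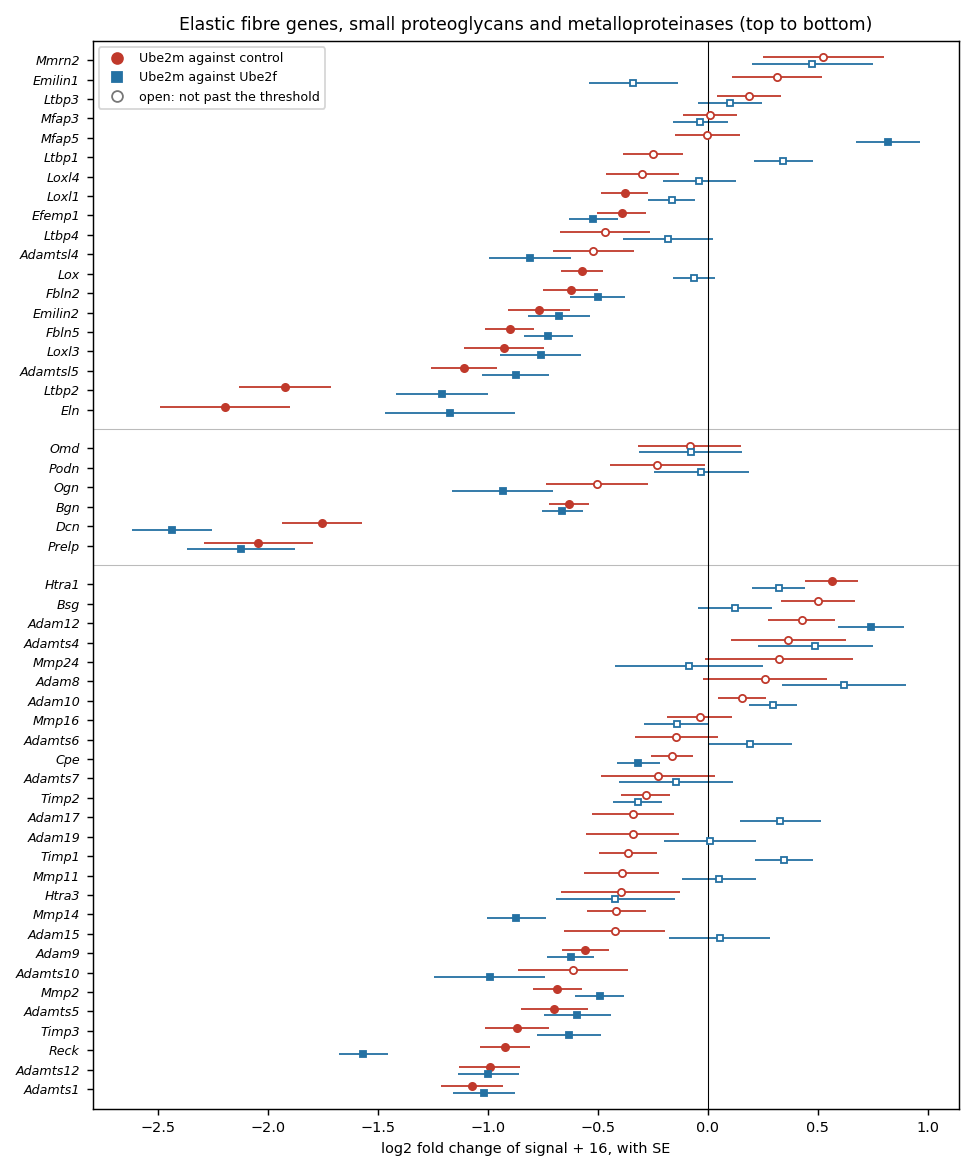
Log2 fold change (with SE) with Ube2m shRNA against control (circles) and against Ube2f shRNA (squares) for the 19 elastic fibre, 6 leucine-rich proteoglycan and 27 metalloproteinase genes tested, filled where adjusted p was under 0.05 in limma. The filled circles lie left of 0 in all 3 lists, with 1 exception, Htra1, and Reck and Dcn are further left against Ube2f than against control.

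In the TGF-beta family 7 of 46 genes fell and 2 rose, or 19.6% called against 9.71% over all genes. The falls include Ltbp2, given above with the elastic fibre proteins. The count of rises was 0 without control replicate 1 and 1 without control replicate 2 or any 1 of the Ube2m arrays. The ligand Tgfb1 and the receptors Tgfbr1 and Tgfbr2 did not pass, with 0.05 (adjusted p = 0.932), 0.17 (adjusted p = 0.578) and -0.10 (adjusted p = 0.577) in that order. Another ligand, Tgfb2, was higher, by 0.88 (adjusted p = 0.0171) against control and 0.87 (adjusted p = 0.011) against Ube2f. Tgfbr3, betaglycan, a co-receptor that presents TGF-beta, read 2037, 1740.3 and 1644 with control and 970, 933 and 1034 with Ube2m shRNA. The groups did not overlap (log2 change -0.87, SE 0.12, adjusted p = 0.000937), and the Ube2f arrays overlapped the control arrays, at 1937, 1800.1 and 2226. Downstream, Smad6, an inhibitory SMAD that BMP signals induce, read 980.3, 955 and 1452 against 422, 342 and 538 (log2 change -1.34, SE 0.21, adjusted p = 0.00206). Id1, an inhibitor of helix-loop-helix factors and a direct BMP target, read 3111, 3988 and 3672 against 2295, 2131 and 2201 (log2 change -0.69, SE 0.11, adjusted p = 0.00218). Id3, a relative of it, read 7231, 7385 and 6765 against 5250.1, 4978 and 3874 (log2 change -0.61, SE 0.12, adjusted p = 0.00884). On all 3 BMP-responsive genes every Ube2m array was below every control array, and each was lower than with Ube2f shRNA, by -1.31 (adjusted p = 0.00117) for Smad6, -0.96 (adjusted p = 9.85e-05) for Id1 and -0.57 (adjusted p = 0.00747) for Id3. Id2 fell (-0.73, adjusted p = 0.00727), a call lost with probe sets averaged (-0.69, adjusted p = 0.0706). Smad7, the other inhibitory SMAD, which TGF-beta induces, had a value of -0.69 that did not pass (adjusted p = 0.141), with control replicates spread over 1084, 728 and 1768.

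Of 45 Wnt pathway genes 4 fell (1 higher and 6 lower at unadjusted p under 0.05, 0 by the unmoderated test), a share near the background, and the count was 2 without Ube2m replicate 1, Ube2m replicate 2 or control replicate 1 and 2 with probe sets averaged. Fzd1, a Wnt receptor, read 4349, 2869.8 and 2992 with control and 1519, 1616 and 1687 with Ube2m shRNA (log2 change -1.05, SE 0.14, adjusted p = 0.000937). Tcf7l1, a DNA-binding partner of beta-catenin that mainly represses, read 2112, 2504 and 2245 against 1344, 1176 and 1219 (log2 change -0.87, SE 0.12, adjusted p = 0.000756), with the Ube2f arrays highest, at 3418, 2745 and 2979. Both genes were lower on every Ube2m array, while Ctnnb1, the gene of beta-catenin, did not pass (0.06, adjusted p = 0.745). Of 44 Notch and Hippo-YAP genes 8 fell (3 higher and 16 lower at unadjusted p under 0.05, 0 by the unmoderated test), and the count was 2 without Ube2m replicate 1 or Ube2m replicate 2, 3 without control replicate 1 or control replicate 3, 3 with probe sets averaged and 4 with arrays centred. Amotl2, a target and inhibitor of YAP, passed whichever array was left out, going down from 5281 ± 748 to 3254 ± 147 (SD, n = 3 each; log2 change -0.69, SE 0.11, adjusted p = 0.00292).

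Kruppel-like transcription factors changed in both directions. Of 12 tested by symbol, a family counted after the values were seen, 3 fell and 1 rose, beside 6.12% lower and 3.59% higher over all genes. Klf2, which is induced by flow and by statins in endothelium, read 2499, 2086 and 2308 with control and 583, 663 and 832 with Ube2m shRNA. The Ube2m arrays were at 30.2% of the control mean (log2 change -1.72, SE 0.15, adjusted p = 3.54e-05), and the Ube2f arrays, at 1797, 1964 and 2444, overlapped control. Klf4, a relative with roles in growth arrest and pluripotency, read 9088, 8496 and 8893 against 4256, 4145 and 5359.6 (log2 change -0.95, SE 0.11, adjusted p = 0.000302). Both differed from Ube2f, Klf2 by -1.56 (adjusted p = 2.95e-05) and Klf4 by -1.03 (adjusted p = 6.61e-05). Klf5, the member that rose, read 552, 551 and 911 with control, 1248, 1428 and 1845 with Ube2m and 345, 366 and 406 with Ube2f shRNA. Its groups did not overlap, with 1.17 (adjusted p = 0.00314) against control and 1.96 (SE 0.20, adjusted p = 3.98e-05) against Ube2f, but the change from control did not pass with probe sets averaged, at 0.87 (adjusted p = 0.0698).

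Actin and contractile genes had 3 rises and 7 falls in 78, or 12.8% called against 9.71% over all genes. For 25.6% of them the groups did not overlap, against 29.7% over all genes. The count of falls was 1 without Ube2m replicate 1 or control replicate 1, 2 without Ube2m replicate 2, 4 without control replicate 2 and 3 with probe sets averaged. Pfn2, a profilin that supplies actin monomers, read 4696, 5250.4 and 4978 with control and 8625, 8624 and 7957 with Ube2m shRNA (log2 change 0.76, SE 0.11, adjusted p = 0.00128). Csrp2, a LIM protein of smooth muscle, read 6555, 6125 and 5628 against 3647, 3727 and 3881 (log2 change -0.70, SE 0.099, adjusted p = 0.00107). Add3, an adducin that ties actin to the membrane skeleton, read 2286, 1832 and 1819 against 908, 1088 and 1009.9 (log2 change -0.97, SE 0.12, adjusted p = 0.000448), or -0.64 (adjusted p = 0.014) with probe sets averaged. Pfn2 was higher, and Csrp2 and Add3 were lower, on every Ube2m array than on any control array. Acta2, smooth muscle actin, did not pass (0.08, adjusted p = 0.795). Tnnt2, cardiac troponin T, read 1723, 1534 and 1869.8 with control, 3441, 3311 and 3028 with Ube2m and 295, 274 and 348 with Ube2f shRNA. Levels were again highest with Ube2m and lowest with Ube2f shRNA, with 0.93 against control (adjusted p = 0.000705) and 3.35 (SE 0.12, adjusted p = 5.02e-09) against Ube2f.

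Cell adhesion molecules of the cadherin, nectin and immunoglobulin families changed in both directions, 4 up and 3 down of 40. That is 17.5% called against 9.71% over all genes. Cdh11, the main cadherin of mesenchymal cells, read 1687, 1748 and 1626 with control, 699, 694 and 932 with Ube2m and 2666, 2139 and 3284 with Ube2f shRNA. The hairpins moved it to opposite sides of control, with -1.12 for Ube2m against control (adjusted p = 0.00105) and -1.77 (SE 0.16, adjusted p = 1.47e-05) between them. Alcam, an immunoglobulin adhesion protein, read 96.4, 114 and 134 with control, 300 ± 47.9 (mean ± SD, n = 3) with Ube2m and 73.2, 70.6 and 85.5 with Ube2f shRNA. Its order was the reverse of that of Cdh11, with 1.27 against control (adjusted p = 0.00226) and 1.77 (SE 0.20, adjusted p = 0.000108) against Ube2f. Gja1, the gap junction protein connexin 43, went up from 7086 ± 225 to 10333 ± 178 (SD, n = 3 each; log2 change 0.54, SE 0.091, adjusted p = 0.00322). Integrins and focal adhesion genes gave 1 rise and 4 falls of 55. The count of rises was 0 without Ube2m replicate 3, 2 without Ube2f replicate 3 or control replicate 1, 4 without control replicate 3 and 5 with arrays centred, and that of falls 1 without Ube2m replicate 2 or control replicate 1 and 2 without Ube2m replicate 1.

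Growth factor receptors and their ligands gave 4 rises and 8 falls of 54, or 22.2% called against 9.71% over all genes. The count of falls was 2 without Ube2m replicate 1, 3 without Ube2m replicate 2 or control replicate 1, 5 with probe sets averaged and 4 with arrays centred, and that of rises 7 without Ube2f replicate 3, 8 without control replicate 3 and 7 with arrays centred. Met, the receptor of hepatocyte growth factor, read 1658, 1254 and 1506 with control, 2606, 2679.8 and 2871 with Ube2m and 613, 518 and 692 with Ube2f shRNA. The Ube2m arrays were highest and the Ube2f arrays lowest, without overlap, at 0.89 (adjusted p = 0.0017) against control and 2.14 (SE 0.13, adjusted p = 1.56e-06) against Ube2f. Kitl, stem cell factor, the ligand of Kit, read 4678, 4564 and 5002 against 7965, 8092 and 8772 (log2 change 0.80, SE 0.12, adjusted p = 0.00117). Gpc1, a glypican that carries heparan sulfate chains for growth factors, read 1347, 1229 and 1046 against 2333, 2418 and 2559 (log2 change 1.01, SE 0.11, adjusted p = 0.000233). Dusp4, a phosphatase induced by ERK signalling that inactivates it, was dim and spread on the control arrays, at 73.6, 55.5 and 156, and read 346, 266 and 477 with Ube2m shRNA (log2 change 1.84, SE 0.35, adjusted p = 0.00671). All 3 Ube2m arrays were above all 3 control arrays for Kitl, Gpc1 and Dusp4. In cyclic AMP signalling, Prkar2b, a regulatory subunit of protein kinase A, read 1107, 1099.7 and 1601 with control and 2588, 2393 and 3413 with Ube2m shRNA (log2 change 1.14, SE 0.18, adjusted p = 0.00264), and Akap12, an anchor of that kinase, rose by 0.58 (adjusted p = 0.00582). The list of 68 G protein and cyclic nucleotide genes had 7 rises and 3 falls, and the count of rises was 4 without Ube2m replicate 1, Ube2m replicate 2, Ube2m replicate 3 or control replicate 1 and 3 with probe sets averaged.

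Slpi and Glipr1, which code for secreted proteins and belong to no list used here, were among the 20 largest rises. Slpi, secretory leukocyte protease inhibitor, which blocks neutrophil elastase, read 721, 626 and 458 with control, 2988, 2943 and 2983 with Ube2m and 862, 796 and 697 with Ube2f shRNA. The Ube2m arrays were nearly equal and far above the others, by 2.30 against control (adjusted p = 3.49e-06) and 1.90 (SE 0.15, adjusted p = 5.73e-06) against Ube2f. Glipr1, a secreted p53-responsive protein of the CAP family, read 122, 149 and 215 against 688, 829 and 584 (log2 change 2.03, SE 0.20, adjusted p = 9.8e-05), or 1.25 (adjusted p = 0.00548) with probe sets averaged. Irak2, a kinase of the Toll-like and interleukin-1 receptors, read 300, 288 and 198 with control, 582, 589 and 712 with Ube2m and 358, 355 and 439 with Ube2f shRNA. Every Ube2m array was above every other array (1.23, adjusted p = 0.00105 against control, 0.69, adjusted p = 0.0171 against Ube2f). NF-kappaB subunits and inhibitors gave 2 rises of 37 (4 higher and 3 lower at unadjusted p under 0.05, 0 by the unmoderated test), which is 5.41% against 9.71% in either direction. That count was 1 without Ube2m replicate 1, Ube2m replicate 2, Ube2m replicate 3, control replicate 1 or control replicate 2 and 1 with probe sets averaged.

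Procr and Thbd, which both act in the activation of protein C, an anticoagulant, changed in opposite directions. Procr, the endothelial protein C receptor, read 1058, 1052 and 1302 with control and 3406, 3154 and 3146 with Ube2m shRNA, a mean of 285% of control (adjusted p = 3.14e-05). Thbd, thrombomodulin, which works beside it, read 2222, 1831 and 2989 against 982, 993 and 1125 (log2 change -1.15, SE 0.16, adjusted p = 0.00111). Procr was thus higher and Thbd lower on every Ube2m array, and both also differed from Ube2f, by 1.45 (adjusted p = 1.42e-05) and -0.92 (adjusted p = 0.00241). Serpinb9b, an intracellular protease inhibitor, went up from 398 ± 87.8 to 1064 ± 198 (SD, n = 3 each; log2 change 1.39, SE 0.19, adjusted p = 0.000928). Of 22 tested complement and coagulation genes 5 rose and 1 fell, and the count of rises was 2 without Ube2m replicate 1 or Ube2m replicate 2 and 3 with probe sets averaged.

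Chemokines, interleukins and their receptors gave 8 falls and 2 rises of 44, and the count of falls was 3 with probe sets averaged. Ccl7, a monocyte attractant, read 939, 1126 and 901 with control, 618, 623 and 449 with Ube2m and 3818, 3879 and 2827 with Ube2f shRNA. The hairpins again lay on opposite sides of control (-0.80, adjusted p = 0.00941 against control, -2.61, SE 0.16, adjusted p = 1.56e-06 against Ube2f). Cxcl12, a chemokine of stromal cells, read 1152, 1094 and 776 with control, 359, 417 and 428 with Ube2m and 1725, 1672 and 2092 with Ube2f shRNA. Its groups stood in the same order, at -1.28 (adjusted p = 0.000448) against control, but the change did not pass with probe sets averaged, at -0.65 (adjusted p = 0.0964). Of 39 interferon-stimulated genes 6 rose and 1 fell against control, or 17.9% called against 9.71% over all genes. The 6 include Igtp, which was under the brightness limit with control and above it with both hairpins. Against Ube2f 1 of the 39 was higher and 4 were lower. Over all genes 6.37% were higher and 9.38% lower in that contrast, so the falls lie near that share. In antigen presentation, Tapbp, tapasin, which loads peptides on class I molecules, read 1465, 1202 and 1139 with control and 2429, 2659 and 2567 with Ube2m shRNA (log2 change 1.01, SE 0.11, adjusted p = 0.00022), and was higher than with Ube2f (0.78, adjusted p = 0.000571). Ifi30, a lysosomal thiol reductase of antigen processing, read 2389.9, 2373 and 1955 against 4479, 4286 and 3152 (log2 change 0.81, SE 0.16, adjusted p = 0.0082) and did not pass against Ube2f (0.27, adjusted p = 0.299). For Tapbp and Ifi30 all Ube2m arrays were above all control arrays.

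In the cell cycle, the mitotic list had 7 rises and 0 falls in 77, or 9.09% (32 higher and 0 lower at unadjusted p under 0.05, 0 by the unmoderated test). Over all genes 3.59% were higher and 6.12% lower. The list had a median of 0.21 and 65 positive values. Its count of rises was 1 without Ube2m replicate 1 or Ube2m replicate 2, 2 without control replicate 1, 3 without Ube2f replicate 1, control replicate 2 or control replicate 3, 2 with probe sets averaged and 15 with arrays centred. Dlgap5, a spindle protein, passed whichever array was left out, at 698, 899 and 706 with control and 1417, 1580.2 and 1264 with Ube2m shRNA (log2 change 0.88, SE 0.13, adjusted p = 0.00132), or 0.58 (adjusted p = 0.03) with probe sets averaged. G1/S and replication genes gave 1 rise and 1 fall of 61. Cdt1, the replication licensing factor, and Cdkn1b, the inhibitor p27, both known as proteins degraded through cullin ligases, did not pass as RNA, with 0.23 (adjusted p = 0.396) and -0.13 (adjusted p = 0.739). H2ax, the histone variant of DNA damage sites, went down from 2169 ± 198 to 1494 ± 91.8 (SD, n = 3 each; log2 change -0.53, SE 0.10, adjusted p = 0.00777). Of 40 p53 target genes 4 rose and 5 fell, with a median of 0.01, and 1 of the 4 rises, Ephx1, is also an NRF2 list member. The rises were 0 without Ube2m replicate 2 and 2 without Ube2m replicate 1 or control replicate 1, and the falls were 2 without Ube2m replicate 1, Ube2m replicate 2 or control replicate 2, 3 without Ube2m replicate 3 or control replicate 1, 3 with probe sets averaged and 2 with arrays centred. Zmat3, a p53-induced RNA-binding protein, read 2739.6, 2408 and 2130.1 with control, 1265, 1489 and 1529 with Ube2m and 1455, 1411 and 1329 with Ube2f shRNA, low with both hairpins (-0.76, adjusted p = 0.00226 against control, 0.03, adjusted p = 0.92 between hairpins). Phlda3, a p53-induced inhibitor of AKT, fell (-0.58, adjusted p = 0.00509).

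The 8 lists of protein synthesis and quality control lay on both sides of the background of 9.71%. Shares were below it for tRNA synthetases (4.76%), proteasome subunits (2.27%) and cytosolic ribosomal proteins (2.22%), and no translation gene was called. Shares were above it for the ATF4 response (21.1%), cytosolic heat shock proteins (15.6%), endoplasmic reticulum chaperones and degradation (15.4%) and autophagy and lysosome genes (12.3%). The 38 genes of the ATF4 amino acid response had 2 rises and 6 falls. Slc7a11, the cystine carrier and an NRF2 list member, was at 1.37 (adjusted p = 0.000749) and Asns, asparagine synthetase, at -0.50 (adjusted p = 0.0356). The count of falls was 2 without control replicate 1, 3 without Ube2m replicate 1, Ube2m replicate 2 or Ube2m replicate 3 and 3 with probe sets averaged, and Asns passed in 2 of 9 fits that leave out 1 array (without Ube2f replicate 2 or 3). Of 45 heat shock protein genes 6 rose and 1 fell, and the count of rises was 2 without Ube2m replicate 1 or Ube2m replicate 2 and 3 with probe sets averaged. Of 52 endoplasmic reticulum genes 4 rose and 4 fell, and the rises were 1 without control replicate 1 and 2 without Ube2f replicate 1, Ube2m replicate 1 or Ube2m replicate 2, and the falls 1 without Ube2f replicate 1, Ube2m replicate 1, Ube2m replicate 2, Ube2m replicate 3, control replicate 1 or control replicate 2, 2 without control replicate 3, 1 with probe sets averaged and 1 with arrays centred. Calr3, a relative of the chaperone calreticulin, was dim with control, at 44.3, 70.1 and 5.9, and read 498, 423 and 480.3 with Ube2m and 69.6, 43.9 and 49.8 with Ube2f shRNA. Only its Ube2m arrays were above the control arrays (log2 change 3.31, SE 0.40, adjusted p = 0.000398), and the hairpins differed by 2.79 (SE 0.40, adjusted p = 0.000564). On the log2 scale the control and Ube2f means of Calr3 lay under the brightness limit. It was therefore tested only because of its Ube2m arrays, and only a rise could be called. Of 81 autophagy and lysosome genes 6 rose and 4 fell, and 1 of the 6 rises, Sqstm1, is also an NRF2 list member. The rises were 3 without Ube2m replicate 1 or Ube2m replicate 2, 2 with probe sets averaged and 11 with arrays centred. The falls were 1 without Ube2m replicate 1, Ube2m replicate 2, control replicate 1 or control replicate 2. Of 45 cytosolic ribosomal protein genes 1 rose (2 higher and 0 lower at unadjusted p under 0.05, 0 by the unmoderated test). Of 83 translation and ribosome biogenesis genes none passed (3 higher and 6 lower at unadjusted p under 0.05, 0 by the unmoderated test), and of 19 clock genes none passed (1 higher and 4 lower unadjusted, 0 by the unmoderated test). Proteasome subunits gave 1 rise of 44, with 14 higher and 0 lower at unadjusted p under 0.05 and 0 by the unmoderated test. That count was 0 without Ube2f replicate 1, Ube2m replicate 1, Ube2m replicate 2, control replicate 1 or control replicate 2, 2 without control replicate 3, 6 without Ube2f replicate 3, 8 without Ube2m replicate 3 and 2 with arrays centred, so that it depends on single arrays. Of 74 ubiquitin-conjugating enzymes and deubiquitinases 2 rose (8 higher and 4 lower at unadjusted p under 0.05, 0 by the unmoderated test).

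The fibroblast label was checked against markers. Vim, vimentin, read 33777 ± 3665 with control and 32752 ± 3542 with Ube2m shRNA (SD, n = 3 each; -0.05, adjusted p = 0.879), and Fn1, fibronectin, was at -0.26 (adjusted p = 0.175). Of 17 tested fibroblast markers 6 or 35.3% fell and 0 rose (0 higher and 8 lower at unadjusted p under 0.05, 1 lower by the unmoderated test). Over all genes 9.71% were called in either direction. The median of these markers was -0.26 and 1 of the 17 had a positive fold change. The count of falls was 3 without Ube2m replicate 1 or Ube2m replicate 2. Summed over all 19 fibroblast markers with a probe set, tested or not, the signal was 173429 to 205935 on the control arrays. It was 160688 to 177698 on the Ube2m arrays, so the groups overlapped. Markers of other cell types were mostly too dim to test. Of 17 macrophage and leukocyte markers with a probe set 5 were tested, and the defining genes Ptprc, Cd68 and Adgre1 were below the limit. All 17 together had sums of 1354 to 1490 with control against 1355 to 1522 with Ube2m shRNA. Of 15 endothelial markers 2 were tested, and Pecam1 and Cdh5 were below the limit. All 15 together had sums of 897 to 1225 against 725 to 922. Of 16 epithelial markers 5 were tested, and all 16 together had sums of 3602 to 5692 against 6161 to 6908, which did not overlap. Most of that sum was Krt14, keratin 14, at 4944, 4774 and 2925 with control and 5978, 6095 and 5295 with Ube2m shRNA (0.49, adjusted p = 0.152), while Epcam was at -0.08 (adjusted p = 0.882). The sums of 62 striated muscle genes (15 of them tested), 6534 to 8642 against 8857 to 9559, did not overlap either. Nor did those of 30 adipogenic genes (10 of them tested), 32950 to 35844 against 31358 to 32575. The muscle sums include Tnnt2, given above with the contractile genes, and its rise makes up a large part of their difference. Of the 15 muscle genes tested it was the only 1 called, or 6.67% against 9.71% over all genes. The part of these markers in the results above was not tested.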

How the data were processed

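RNA of 9 NIH 3T3 samples, 3 per hairpin, was measured on 1-colour arrays. The authors deposited linear intensity values, 1 per probe set, made with MAS5 per the submitters' processing notes. Its version and its detection calls were not given in the sources used here. Every array's trimmed mean signal (2% off each end) was 500 in the deposited intensities, so no depth is counted, and precision is limited by having 3 arrays a group.

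Of 45101 probe sets, 34945 had 1 gene name in the probe table used here (34884 of these names were listed by RefSeq), 932 had several, 9160 had none and 64 were controls. For each of 18193 genes the probe set with the highest mean over 9 arrays was kept, and genes at or above the median of all non-control probe sets were tested as log2(signal + 16). That mean covers all 9 arrays, so a gene too dim with control could be tested only where a hairpin raised it. limma 3.58.1 in R 4.3.3 (1 mean per group over all 9 arrays, eBayes with an intensity trend) gave two-sided p-values with Benjamini-Hochberg adjustment over 10613 genes, threshold 0.05. The script was tested on simulated data. Families were described by counts and medians over 77 lists, 1 of which is not reported here. Named genes were the 20 largest changes each way and, per list, up to 8 called members per direction, the cullin and NEDD8 genes, and founding or rate-limiting members. Genes that did not pass, such as Smad7, Cdt1 or Krt14, and the choice among called members were taken after values were seen. The comparison, lists and genes were chosen with earlier results of these data known. Arrays of both hairpins share the control arrays, so the direct contrast was used for differences. Alternatives covered the constant, the filter, probe sets, scaling, the variance model, the replicate number, RNA quality, a plain t-test (an unmoderated test of each gene) and each array left out.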

Additional observations from a re-analysis of the deposited data

Results flagged for a closer look

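The 9160 probe sets without a gene name were not part of the comparison of genes. Of the 2269 of them bright enough to test, 27 passed adjusted p under 0.05 between Ube2m and control shRNA in limma, or 1.19%, with 14 higher and 13 lower. They stand here because they lie outside the main measurement, and their share is below the 9.71% of named genes.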

How the results depend on the processing

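The count of 1031 changed genes (381 higher, 650 lower) was 607 with probe sets averaged (327 lower), 449 with the beta-actin ratio in the fit (202 higher, 247 lower) and 119 by a plain t-test (58 higher, 61 lower). It was 1747 with replicates 1 and 2 only (682 higher, 1065 lower) and 2118 with replicate 3 as a batch term (827 higher, 1291 lower). With arrays centred on the median 432 genes were lower, and all 381 higher genes stayed higher. Leaving out 1 array gave 388 to 1177 changed genes, 157 to 442 higher and 231 to 735 lower. The 593 genes changed by at least 1.5-fold were 388 with the filter at the upper quartile, 360 with the beta-actin covariate, 85 by a plain t-test and 351 to 704 with 1 array left out. The 1672 genes that differed between Ube2m and Ube2f shRNA were 1109 with probe sets averaged, 2714 with replicate 3 as a batch term, 901 by a plain t-test and 1017 to 1813 with 1 array left out. The remaining alternatives kept these counts within 1.5 times.

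Deviations of same-numbered control and Ube2m arrays correlated at -0.005, 0.185 and 0.317 for replicates 1, 2 and 3, and those of different-numbered arrays at -0.324 to 0.229. Control replicate 3 correlated best with its own number, and control replicates 1 and 2 with each other's (0.088 and 0.229). These values therefore showed no pairing by number for replicates 1 and 2. They cannot exclude a pairing, because the 3 deviations of a group sum to 0 and are not independent. The replicate 3 arrays stand apart from the rest, as their median signals do. Fitting the replicate number as a block gave 1866 changed genes, 729 higher and 1137 lower.

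Of 420 named genes 388 passed, 162 of these whichever array was left out and 121 in every alternative that could be computed. With probe sets averaged the sign turned for Bcl2l1 (0.134), Coro1c (0.066), Crebbp (0.117), Flt1 (0.078), Klhl28 (0.006) and Map4 (0.005). Leaving out probe sets that may match several transcripts, it turned for Coro1c (0.332), Myo1d (0.04), Nme1 (-0.028) and Socs3 (-0.08). The cause was not tested. Dim genes depend on the constant added before the log.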
